A study of Mus musculus with 32 samples.

Results

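Replication-dependent histone genes encode the bulk H1, H2A, H2B, H3 and H4 proteins that package newly made DNA. They were taken as the rows of the deposited gene table whose symbol, looked up from the Ensembl gene identifier, carries a Hist1, Hist2, Hist3 or Hist4 name or the newer H2ac, H2bc, H3c, H4c or H1f name of the same genes. This gave 66 of the 41687 rows: 6 for linker histone H1, 20 for H2A, 17 for H2B, 10 for H3 and 13 for H4. The Hist1 cluster on chromosome 13 held 52 of them, the Hist2 cluster on chromosome 3 held 10, the Hist3 cluster on chromosome 11 held 3, and Hist4h4 on chromosome 6 stood alone. Another 4 symbols of the same families (Hist1h2bh, Hist1h2bm, Hist1h3h and Hist1h3i) had no row, and 2 member rows were at 0 in all libraries. The members Hist1h2aj, Hist1h2al and Hist3h2bb-ps are annotated as pseudogenes with no coding sequence. Values are given as CPM, estimated counts scaled to a common library size with TMM factors over all 32 libraries; they are not divided by length unless given per kb.

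The libraries came from lungs of 12 mice, 6 wild type C57b/6 (WT) and 6 Bmal1 knock-outs (KO), aged 8 to 18 weeks, labelled female and bred in one facility. Bmal1, the product of Arntl, is a core activator of the circadian clock. How its allele was disrupted is not given in the sources used here. Each mouse gave a RiboZero library, made after ribosomal RNA was pulled down, and a PolyA library, made from RNA captured by its poly(A) tail (n = 6 per genotype for each). Mice 3 to 6 of each genotype also gave a NoSelect library, made from total RNA with neither step (n = 4 per genotype). Input was 200 ng for the first 2 preparations and 15 ng for NoSelect, whose libraries were made in 6 replicates per animal.

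Most messenger RNAs end in a poly(A) tail, whereas the canonical messages of replication-dependent histones end just past a short stem-loop that is bound by the protein Slbp. Poly(A) capture therefore holds such a message poorly unless a copy of it carries a tail. Some of these genes are known to make a second, longer and polyadenylated transcript, a form described above all in cells that have left the cell cycle. The comparison of PolyA libraries with the other 2 preparations asks, row by row, which histone genes kept their level under poly(A) capture.

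The ends of annotated transcripts are shown first because the stem-loop and the polyadenylation hexamer are the signals by which these messages are known to end. A stem-loop was searched for on the transcript strand as 16 bases with G at the first 2 positions, T at positions 6 to 8, A at position 11 and C at the last 2, and with the 3 inner positions of the stem paired (G-U pairs allowed), and it was found in annotated transcripts of 42 of the 66 members (63.6%), against 0.56% of 21951 protein-coding genes. In the following 30-base stretches, 5′ to 3′ and GRCm38, the capitals mark that match. The first 3 genes lost nearly all of their counts in PolyA libraries and the other 3 did not.
Hist1h4d, chr13:23581943-23581972, plus strand: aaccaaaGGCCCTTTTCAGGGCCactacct
Hist1h4c, chr13:23698082-23698111, minus strand: aacaaaaGGCCCTTTTCAGGGCCacccaca
Hist1h1e, chr13:23621775-23621804, minus strand: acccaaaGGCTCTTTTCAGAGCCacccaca
Hist1h1c, chr13:23739505-23739534, plus strand: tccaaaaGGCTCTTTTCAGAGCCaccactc
Hist3h2a, chr11:58955165-58955194, plus strand: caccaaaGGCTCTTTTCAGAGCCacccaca
Hist2h3c2, chr3:96238478-96238507, minus strand: ccacaaaGGCTCTTTTCAGAGCCaccacag
The 16 letters were the same in Hist1h1e, Hist1h1c, Hist3h2a and Hist2h3c2, and this form was the commonest, found in 24 members. The form of Hist1h4d and Hist1h4c was found in 7 members.

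A polyadenylation hexamer, AATAAA or ATTAAA within the last 50 bases of an annotated transcript, was found in 17 of the 66 members (25.8%), against 80.7% of protein-coding genes. The stretches below are those of 4 rows that kept their level in PolyA libraries, then of Hist1h2be, which was partly lost, and of Hist1h4h, which was deeply lost. Capitals mark the hexamer.
Hist1h1c, chr13:23740330-23740359, plus strand: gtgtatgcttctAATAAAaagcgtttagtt
Hist2h2be, chr3:96223705-96223734, plus strand: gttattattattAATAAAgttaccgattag
Hist3h2a, chr11:58956785-58956814, plus strand: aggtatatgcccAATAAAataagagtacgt
Hist1h2bq, chr13:21807286-21807315, minus strand: agaagaatattaAATAAAtttgtttcttct
Hist1h2be, chr13:23583672-23583701, minus strand: gttgtgttccttATTAAAgcattcctgatt
Hist1h4h, chr13:23531476-23531505, plus strand: ccacattttcttATTAAAagagcgaacatg
The stretch printed for Hist1h2bq also ends a transcript of its near-identical neighbour Hist1h2br, letter for letter. A match is a description of these letters and says nothing of use in lung.

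Some libraries went against their labels or stood apart. The NoSelect library of KO mouse 6 carries the tissue label liver, yet all 10 lung markers tested (among them Sftpc and Scgb1a1) had at least 10 counts in it and summed to 23700 CPM, the highest of the NoSelect libraries. Liver markers (Alb and 9 others) summed to 3.3 to 6.36 CPM in all NoSelect libraries. KO mouse 6 is labelled female but its libraries held 0.391, 0.0812 and 0.0482 CPM of Xist and 72.5, 89.1 and 41.4 CPM of the Y-linked Ddx3y in NoSelect, RiboZero and PolyA, where the other libraries had 0 CPM of Ddx3y. Arntl lay between 15.2 and 18.7 CPM in the KO libraries of RiboZero and NoSelect and between 27 and 33.9 CPM in WT, whereas in PolyA the KO range (17 to 20.9) and the WT range (19.6 to 23.6) overlapped. Total estimated counts ran from 74979801 to 115059756 in NoSelect, from 29924325 to 41548830 in PolyA and from 11638593 to 25801236 in RiboZero.

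Histone RNA fell in PolyA libraries as a whole. Summed over the 66 rows, the level lay at 365 to 497 CPM in NoSelect (median 402), 334 to 561 in RiboZero (median 436) and 90.8 to 134 in PolyA (median 102). No PolyA library reached the lowest library of either other preparation, and the PolyA mean was 26.6% of the NoSelect mean and 25.2% of the RiboZero mean. The NoSelect range lay within that of RiboZero. The number of histone rows with at least 10 counts in a library was 53 to 56 in NoSelect, 48 to 58 in RiboZero and 14 to 20 in PolyA, although PolyA libraries were deeper than RiboZero ones.

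The loss differed between histone types in these sums. Summed H4 RNA, for the core histone made from 13 rows that all encode the same protein, went from 149 to 181 CPM in NoSelect to 1.62 to 3.24 in PolyA, so that the PolyA mean was 1.42% of the NoSelect mean. Summed H3 went from 26.3 to 49.8 CPM to 1.93 to 3.84, or 7.68% of the NoSelect mean. H1 kept 38.5%, H2A 40.7% and H2B 61.5% of their NoSelect means, with summed H2B at 74.1 to 106 CPM in NoSelect and 45.1 to 61 in PolyA. The PolyA libraries lay below every NoSelect and RiboZero library for each of the 5 types. Single rows carried some of these sums. In PolyA, Hist1h1c alone lay at 23.4 to 41.2 CPM, of 23.7 to 41.6 for summed H1, and Hist1h2bc at 33.4 to 46.4 made up most of summed H2B. The fitted median row gave another order. The median edgeR log2 fold change of tested rows against NoSelect was -7.95 for H1, -7.11 for H2A, -5.06 for H2B, -7.99 for H3 and -6.61 for H4. This order is not firm. Rows with no more than 3 counts in every PolyA library, most frequent in H3, entered with fitted folds that depend on the prior count. The medians by type were not recomputed with such rows at their bounds.

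**Figure D1:**
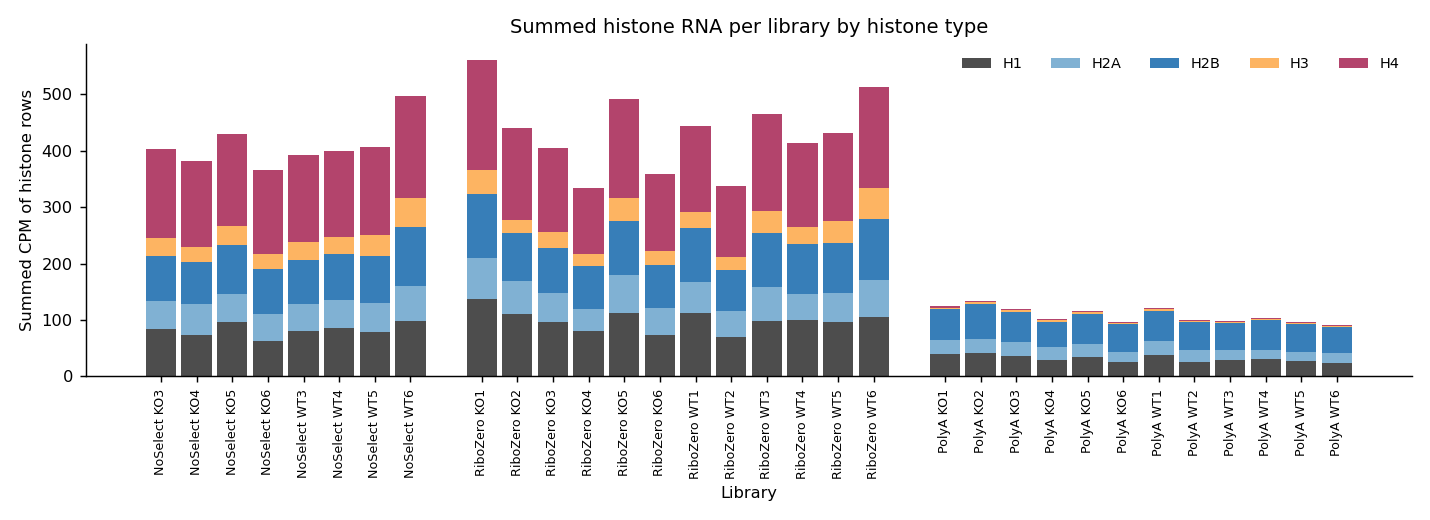
Summed CPM of the histone rows in each of the 32 libraries, stacked by histone type, bars from 0. NoSelect and RiboZero bars reach 334 to 561 CPM with H4 as the tallest segment, whereas PolyA bars reach 90.8 to 134 CPM with H4 hardly visible.

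Row by row, the quasi-likelihood test of edgeR, adjusted by Benjamini-Hochberg over every tested row of the table, called 43 of 50 tested histone rows lower in PolyA than in NoSelect (adjusted p under 0.05 and a log2 fold change of -1 or less). In the background, 15.0% of 17554 tested rows were called lower. Against RiboZero, 44 of 50 tested rows were called lower, beside 15.3% of 17228 rows, and 41 rows were called lower in both comparisons. Rows called higher numbered 1 against NoSelect (Hist1h2bq, background 9.19%) and 0 against RiboZero (background 6.54%). Against RiboZero, all but 2 of the 50 tested histone rows had an unadjusted p under 0.05 in one direction or the other. Such a p was also found in 14250 of 17228 rows of the table. DESeq2 called 45 histone rows lower against RiboZero. The median log2 fold change of the tested histone rows was -6.69 against NoSelect and -6.48 against RiboZero, beside 0.08 and 0.07 over all rows. These became -5.45 and -5.24 when each row with no more than 3 counts per PolyA library was put at its bound. A row near the count filter could pass it through the preparation in which it was high, so these shares describe the rows tested and not the whole family. Without a filter, every PolyA library lay below every NoSelect library in 49 of the 66 members, beside 17.4% of 30066 rows with any count, and below every RiboZero library in 48, beside 14.6%.

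RiboZero and NoSelect, the 2 preparations that do not rely on a tail, gave a median histone log2 difference of -0.01 over 53 tested rows. Of these, 2 were called lower in RiboZero (background 2.37%) and 1 higher (background 1.42%), and all 3 were rows that share most of their sequence with another row, described further on. Differences lay below 0 in 30 of them and above 0 in 23.

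The 48 rows tested in both PolyA comparisons were sorted by size of loss. A row escaped if its log2 fold change was above -1 in both comparisons, was partly lost if it was not but stayed above -3 in both, and was deeply lost otherwise. By this rule 6 rows escaped, 5 were partly lost and 37 were deeply lost, whereas above -1 in both stood 83.6% of 17043 rows of the table. The escaping rows were Hist1h1c, Hist1h2bc, Hist1h2bq, Hist2h2be, Hist2h3c2 and Hist3h2a. Together they made up 16.9% to 20.1% of the summed histone CPM in NoSelect and 18.2% to 25.5% in RiboZero, but 83.6% to 86.8% in PolyA. A larger share in PolyA follows from the rule, which chose these rows by the same folds, and only its size is described here.

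**Figure D2:**
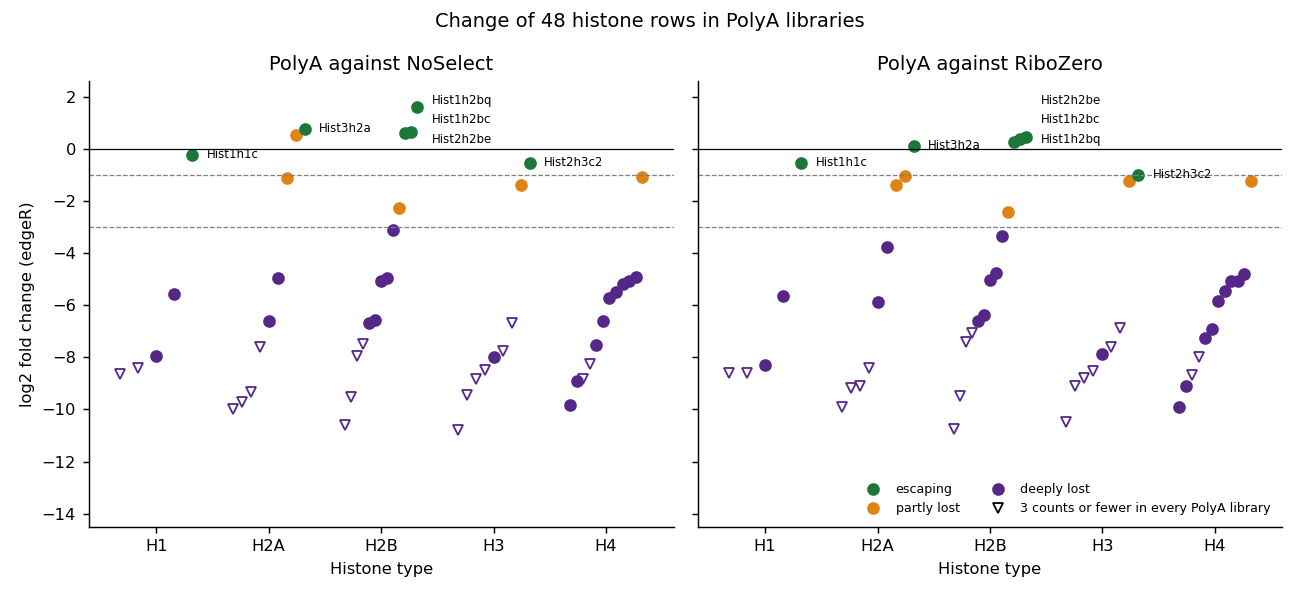
log2 fold change of the 48 histone rows in PolyA against NoSelect (left) and against RiboZero (right), by histone type, each symbol a row and open triangles rows with at most 3 counts in every PolyA library, whose fitted folds depend on the prior count. Dashed lines mark -1 and -3. The 6 escaping rows lie at or above -1 in both panels, 3 of them H2B rows, and no H4 row is among them.

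By histone type, 3 of 13 tested H2B rows escaped, and 1 row each of 5 H1, 9 H2A and 9 H3 rows, against 0 of 12 H4 rows. Of the 3 H2B rows, Hist1h2bq depended on how counts were split with the near-identical Hist1h2br. The 2 gene rows together were 2.35-fold lower in PolyA than in NoSelect, with overlap. With their transcript rows added, the pair was 6.59-fold lower, without overlap. The H3 row, Hist2h3c2, was inside the limit in KO and outside it in WT. By cluster, 3 of 38 tested Hist1 rows escaped, 2 of 8 Hist2 rows, the 1 tested Hist3 row, and not the Hist4 row. Within Hist1 the escaping rows were 1 of 5 H1 rows and 2 of 11 H2B rows, and none of the 5 H2A, 7 H3 and 10 H4 rows tested there. Within Hist2 they were 1 of 2 H2B rows and 1 of 2 H3 rows. The numbers are small and no difference between types or clusters was tested.

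Of the escaping rows, 3 were H2B genes. Hist1h2bc, an H2B gene of the Hist1 cluster (ENSMUSG00000018102, chr13:23684199-23692908), lay at 22.9, 24.8 and 27.1 CPM (lowest, median, highest) in NoSelect. It lay at 25.4, 29.1 and 34.8 in RiboZero and at 33.4, 38.9 and 46.4 in PolyA. PolyA was thus above all NoSelect libraries and overlapped the top of RiboZero. On the log2 scale PolyA was higher by 0.65 (SE 0.0503, adjusted p = 1.69e-10) against NoSelect and 0.38 (adjusted p = 3.81e-07) against RiboZero. Its annotated transcripts have up to 2 exons, and neither the stem-loop nor the hexamer was found in them.

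Hist2h2be, an H2B gene of the Hist2 cluster (ENSMUSG00000068854, chr3:96221119-96223738), lay at 4.44, 5.2 and 5.55 CPM in NoSelect, at 4.55, 5.41 and 7.16 in RiboZero and at 5.85, 7.53 and 8.82 in PolyA. The PolyA libraries were above all NoSelect libraries and overlapped RiboZero. On the log2 scale the difference was 0.61 (SE 0.0738, adjusted p = 1.84e-07) against NoSelect and 0.45 (adjusted p = 1.21e-05) against RiboZero. Its single annotated exon runs 2192 bases past the stop codon and ends with the hexamer printed above.

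Hist3h2a, the H2A gene of the Hist3 cluster (ENSMUSG00000078851, chr11:58954685-58956830), lay at 6.3, 7.34 and 10.1 CPM in NoSelect, at 9.15, 11.2 and 17.2 in RiboZero and at 9.28, 13 and 17.3 in PolyA. All 3 ranges overlapped. The log2 fold change was 0.77 (SE 0.104, adjusted p = 9.73e-07) against NoSelect and 0.09 (adjusted p = 0.398) against RiboZero. RiboZero itself was above NoSelect for this row by 0.65 on the log2 scale. Of its 31-base words, 32.1% also occur in transcripts of the neighbouring gene Trim17, so part of its count may belong to either row.

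Hist1h1c, a linker histone H1 gene (ENSMUSG00000036181, chr13:23738808-23740367), had the highest NoSelect level per kb of exon of the escaping rows, 23.7 CPM per kb, beside 21.7 for Hist1h2bc. In CPM it lay at 30.4, 37.8 and 41.9 CPM in NoSelect, at 32.5, 44.8 and 63.6 in RiboZero and at 23.4, 30.2 and 41.2 in PolyA, with overlap throughout. The log2 fold change was -0.22 (SE 0.0989, adjusted p = 0.0456) against NoSelect and -0.55 (adjusted p = 1.64e-05) against RiboZero, so that PolyA kept 84.9% of its NoSelect mean. Scaled by total counts without TMM, which moved the median of all rows from 0.08 to 2.24, its value against NoSelect was 1.94. The other 4 tested H1 rows were all deeply lost.

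**Figure D3:**
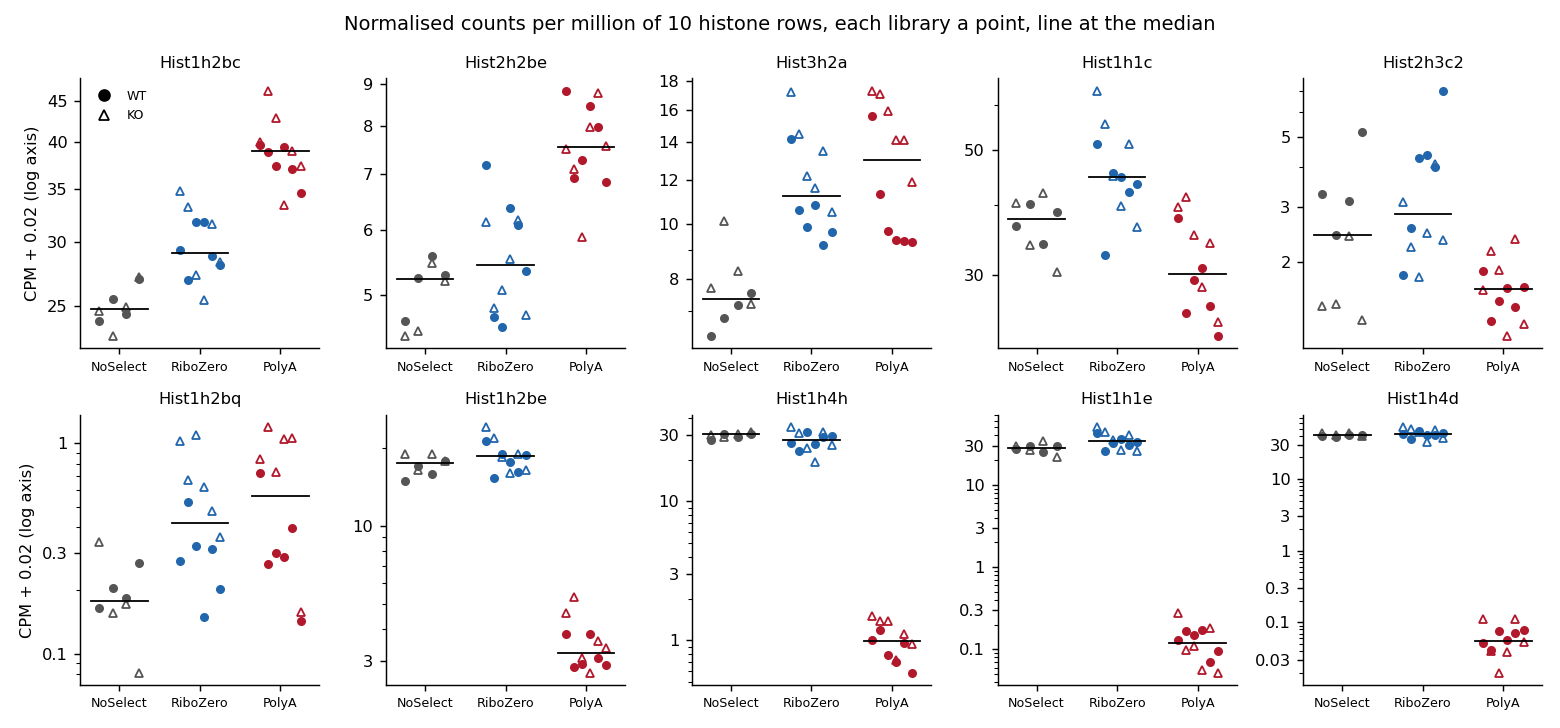
CPM plus 0.02 on log axes for 10 rows, each symbol a library, filled circles WT, open triangles KO, black lines the median per preparation; each panel has its own scale. The upper row and Hist1h2bq show the 6 escaping rows, in which PolyA overlaps or exceeds at least 1 other preparation, and the last 4 panels show rows whose PolyA libraries all lie below the rest.

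Hist1h1e, another H1 gene, set the contrast. It lay at 21.5, 28.2 and 34.3 CPM in NoSelect, at 25.8, 33.8 and 49.8 in RiboZero and at 0.0324, 0.101 and 0.256 in PolyA. The fitted log2 differences were -7.95 (SE 0.185, adjusted p = 5.59e-19) and -8.31 (adjusted p = 2.42e-22), and no library overlapped. The 16 letters of its stem-loop are those of Hist1h1c. Hist1h1a and Hist1h1b had at most 1 and 2 counts in a PolyA library and were at least 55.0-fold and 75.8-fold lower than in NoSelect, with the floor taken as 3 counts per PolyA library. Hist1h1d, with a log2 fold change of -5.56 against NoSelect, is annotated with 4931 bases past its stop codon.

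The H3 row Hist2h3c2 (ENSMUSG00000081058, chr3:96238108-96239127) stood at the edge of the rule. It lay at 1.29, 2.41 and 5.16 CPM in NoSelect, at 1.78, 2.82 and 6.98 in RiboZero and at 1.15, 1.63 and 2.36 in PolyA, and the ranges overlapped. By genotype they did not all do so: in WT, NoSelect lay at 2.42 to 5.16 CPM and PolyA at 1.28 to 1.86, whereas in KO they lay at 1.29 to 2.41 and 1.15 to 2.36. Over both genotypes the log2 fold change was -0.56 (SE 0.209, adjusted p = 0.0184) against NoSelect and -1.0 (adjusted p = 4e-05) against RiboZero, just inside the limit. It was below -1 (-1.01 to -1.04) with DESeq2, with median-of-ratios size factors, with at least 10 counts required in every library, after thinning, and without KO mouse 6, and then 4 or 5 rows escaped in all. Of its 31-base words, 64.2% are shared with Hist2h3c1, whose row was at 0. All words of Hist2h3c1 also occur in Gm20634, a row described further on that lay at 6.58 to 11.3 CPM in PolyA. How counts were split between Hist2h3c2 and Gm20634 was not tested. From mean CPM within a genotype, with no test, the log2 ratio of PolyA to NoSelect and to RiboZero was -1.17 and -1.36 in WT, outside the limit, and 0.07 and -0.62 in KO, inside it. The place of Hist2h3c2 among the escaping rows thus came from the KO libraries. The KO against WT difference of Hist2h3c2 in NoSelect was -1.09 (adjusted p = 0.0995, between 0.00959 and 0.236 over the alternatives). The nearest rows outside the limit were Hist1h2ac (-1.11 and -1.03) and Hist1h4i (-1.10 and -1.23).

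The partly lost rows were 2 H2A, 1 H2B, 1 H3 and 1 H4 row. Hist2h2aa2 (H2A) was placed there by RiboZero alone, with log2 fold changes of 0.52 against NoSelect and -1.38 against RiboZero. It shares sequence with Hist2h2aa1, which was deeply lost (-4.95 and -3.76), so both classes depend on how counts were split, as described further on. Hist1h2be, an H2B gene, lay at 14.9, 17.4 and 18.8 CPM in NoSelect, at 15.2, 18.5 and 23.9 in RiboZero and at 2.69, 3.21 and 5.28 in PolyA, below all others. Its log2 fold change was -2.28 (SE 0.101, adjusted p = 1.41e-14) against NoSelect and -2.42 (adjusted p = 3.32e-17) against RiboZero. The row joins up to 2 exons over a span that overlaps Hist1h1e on the same strand, with which it shares part of its words. Hist1h2ac (H2A), with PolyA at 0.312 to 0.787 CPM and NoSelect at 0.887 to 1.27, did not overlap NoSelect, but overlapped RiboZero at 0.448 to 1.58. Hist1h3d (H3; -1.40 and -1.25) and Hist1h4i (H4) overlapped in both comparisons, with 8.6 to 33.7 counts of Hist1h4i per PolyA library. Under total counts without TMM the values of Hist1h2ac, Hist1h3d and Hist1h4i against NoSelect were 1.04, 0.77 and 1.05, below the shifted median of all rows (2.24). Hist1h4i was the H4 row that kept the largest share of its NoSelect mean among the 12 tested, 45.6%, at a NoSelect median of 0.729 CPM. Without the NoSelect library of WT mouse 6 its log2 fold change against NoSelect was -0.92. Within KO alone its ratios of mean CPM, -0.75 and -0.99, lay inside the limit, and within WT, -1.53 and -1.51, outside it.

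The most abundant rows per length were mostly H4 rows. Per kilobase of annotated exon, the NoSelect means were highest for Hist1h4h (64.0 CPM per kb), Hist1h4d (36.2), Hist1h4c (36.0), Hist2h2aa1 (34.8), Hist1h4m (24.0) and Hist1h1c (23.7), and all but Hist1h1c lost most of that level in PolyA. Hist1h4d had 1084.5 to 1645.7 counts per NoSelect library and 0 to 5 per PolyA library. In CPM it lay at 39, 41.2 and 43.7 in NoSelect, at 32.8, 42.7 and 52.4 in RiboZero and at 0, 0.0351 and 0.0908 in PolyA. The fitted log2 differences were -9.83 (SE 0.133, adjusted p = 1.09e-22) against NoSelect and -9.90 (adjusted p = 4.81e-26) against RiboZero.

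Hist1h4c showed a loss of similar size, with 27.4, 29.8 and 31 CPM in NoSelect, 25.6, 33.9 and 44.6 in RiboZero and 0, 0.0638 and 0.136 in PolyA (-8.90 and -9.08). Hist1h4h, whose transcript holds both the stem-loop and a hexamer, lay at 27.6, 30.4 and 31.7 CPM in NoSelect, at 19.1, 27.5 and 34.1 in RiboZero and at 0.568, 0.967 and 1.49 in PolyA. Its log2 fold changes of -4.90 and -4.79 (SE 0.122 and 0.133) left 3.33% of the NoSelect mean, and its PolyA libraries held 29.7 to 82.4 counts each. None of these H4 rows overlapped between PolyA and another preparation. They were named for a high NoSelect level per kb and a low log2 fold change, so this follows in part from the choice.

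Over the 37 deeply lost rows, the log2 fold change against NoSelect ran from -10.80 to -3.13 and against RiboZero from -10.74 to -3.34. None of the 37 overlapped in either comparison, where 17.4% and 14.6% of all rows with any count lay lower in PolyA without overlap. The class was defined by these same folds, so the lack of overlap and the size of the loss largely follow from the rule. The median row kept 0.37% of its NoSelect mean, and their summed level was 81.7-fold lower in PolyA than in NoSelect. At most 3 counts were seen in every PolyA library for 18 of them: 6 H3, 4 H2A, 4 H2B, 2 H1 and 2 H4 rows. These were at least 20.7-fold (Hist1h2ao) to at least 127-fold (Hist1h4f) lower than in NoSelect. Hist2h3b and Hist2h2bb, neighbouring H3 and H2B genes of the Hist2 cluster, had 0 counts in all 12 PolyA libraries, and were at least 91.0-fold and 79.3-fold lower.

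Within a cluster, rows that escaped lay beside rows that did not. Hist2h2be and the H2A gene Hist2h2ac are annotated 239 bases apart on opposite strands. Hist2h2ac lay at 3.9 to 4.67 CPM in NoSelect and had 0 or 1 count per PolyA library, at least 78.7-fold lower. Hist1h2bc and the partly lost Hist1h2ac are likewise 251 bases apart on opposite strands, and Hist1h2bq lies 268 bases from the deeply lost Hist1h2ao. The nearest members to Hist1h1c, 4606 and 6367 bases away, were the deeply lost Hist1h3c and Hist1h2bb.

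Annotated length went with the classes in these counts. Of 16 tested rows with at least 1000 bases of annotated exon, 6 escaped, 3 were partly lost and 7 were deeply lost; of 32 shorter rows, 0 escaped, 2 were partly lost and 30 were deeply lost. A terminal hexamer was annotated in 12 tested rows, of which 4 escaped and 6 were deeply lost, against 2 and 31 of the 36 rows without one. The stem-loop was found in 3 of the 6 escaping rows, in all 5 partly lost rows and in 25 of the 37 deeply lost rows. The models of 7 deeply lost rows and of 6 rows not tested in both end less than 10 bases past the stop codon, so a stem-loop there could not be searched for. Lengths also set how many counts a transcript can collect, and the classes were not tested against length.

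**Figure D4:**
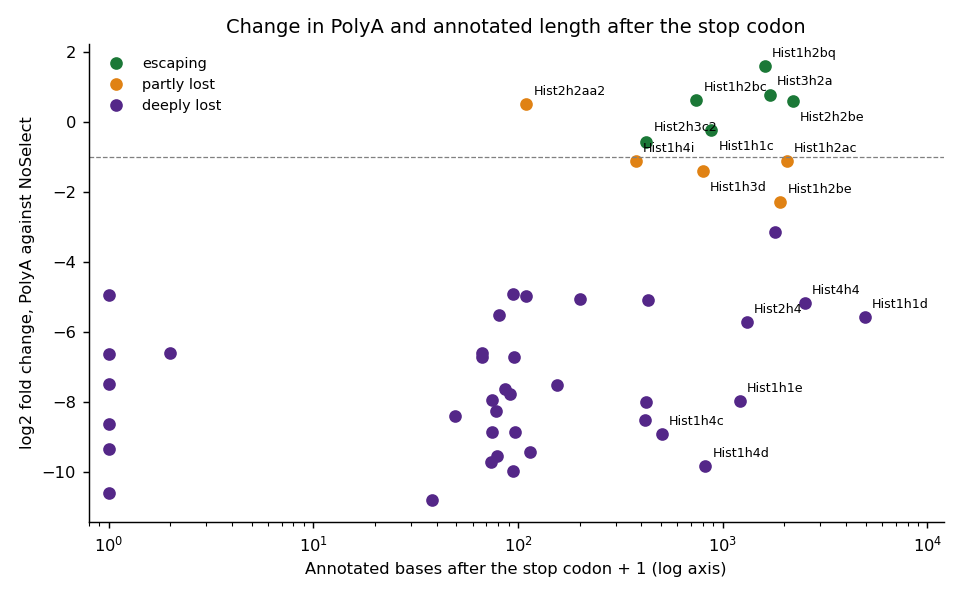
log2 fold change in PolyA against NoSelect for each tested row by the annotated number of bases after the stop codon plus 1 (log axis), coloured by class, with the dashed line at -1. The 6 escaping rows lie at 423 or more bases, but Hist1h4d, Hist1h1e, Hist2h4, Hist4h4 and Hist1h1d are as long and lie below -5.

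A long annotated end did not always go with escape. Hist1h4d, Hist1h4c, Hist1h1e, Hist2h4, Hist4h4 and Hist1h1d are annotated with 822, 503, 1209, 1311, 2515 and 4931 bases past the stop codon, and their log2 fold changes against NoSelect were -9.83, -8.90, -7.95, -5.71, -5.17 and -5.56. Hist2h4 and Hist4h4, both H4 genes, also end in a hexamer. Hist4h4 lay at 5.14 to 6.25 CPM in NoSelect and at 0.0956 to 0.236 in PolyA.

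Near-identical rows limit what a row can say. Hist1h2bq is an H2B gene whose gene row escaped, at 0.0613, 0.157 and 0.32 CPM in NoSelect, 0.13, 0.398 and 1.07 in RiboZero and 0.123, 0.541 and 1.17 in PolyA. Its log2 fold change against NoSelect was 1.62 (SE 0.419, adjusted p = 0.00148), on 2.5 to 8 counts per NoSelect library, and against RiboZero 0.26 (adjusted p = 0.434), and all ranges overlapped. Of its 31-base words, 98.3% also occur in Hist1h2br, whose gene row was deeply lost (-3.13 and -3.34). The table further holds, under transcript identifiers and therefore outside the 66 members, 1 coding-only model of each gene, with log2 fold changes of -5.81 and -5.58 for that of Hist1h2bq and of -7.64 and -7.78 for that of Hist1h2br. Summed over the 2 gene rows and the 2 transcript rows, the pair lay at 3.4 to 8.77 CPM in NoSelect, 3.31 to 9.19 in RiboZero and 0.293 to 1.56 in PolyA, 6.59-fold below the NoSelect mean with no overlap. The 2 gene rows alone summed to a PolyA mean 2.35-fold below that of NoSelect and 3.05-fold below that of RiboZero, with overlap in both. The gene row of Hist1h2bq alone was thus not lost. The pair was lower, and without overlap only when its transcript rows were added.

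Hist2h2aa1 and Hist2h2aa2, H2A genes in opposite directions on chromosome 3, showed the same limit. Hist2h2aa1 lay at 17.9, 20 and 24.1 CPM in NoSelect, 3.91, 9.19 and 12.1 in RiboZero and 0, 0.61 and 1.41 in PolyA. Hist2h2aa2 lay at 2.22, 4.63 and 7.23, at 10.8, 17.6 and 23.5, and at 4.76, 6.7 and 8.1 in the same order. In RiboZero against NoSelect the first was called lower (-1.21, adjusted p = 1.01e-05) and the second higher (1.87, adjusted p = 2.37e-08). Their sum did not show this difference: it lay at 22.4 to 28.5 CPM in NoSelect and 17.3 to 34.5 in RiboZero, and at 5.79 to 8.66 in PolyA, a 3.4-fold lower mean with no overlap. The stem-loop stretches of the 2 genes are letter for letter the same, and all words of Hist2h2aa2 occur in other rows.

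The overlapping row Gm20634, a processed transcript that overlaps Hist2h2aa1 and Hist2h3c1 on the same strand, holds every 31-base word of Hist2h3c1, and Hist2h3c1 was at 0 in all libraries. Gm20634 lay at 10.8 to 15.3 CPM in NoSelect, 6.95 to 11.9 in RiboZero and 6.58 to 11.3 in PolyA. The sum of Hist2h2aa1, Hist2h2aa2, Hist2h3c1 and Gm20634 had medians of 38.1, 35.2 and 15.1 CPM in the 3 preparations, with PolyA at 13 to 18 below all other libraries. Hist2h3c2, 64.2% of whose words occur in Hist2h3c1 and so in Gm20634, was not part of this sum. The H4 rows Hist1h4m and Hist1h4n share 91.7% and 87.5% of their words with other rows. Hist1h4m had 218.4 to 370 counts in NoSelect but 0 to 310.6 in RiboZero, and their summed level was 76.6-fold lower in PolyA than in NoSelect. The H2A row Hist1h2ap, called lower in RiboZero than in NoSelect (-1.69, adjusted p = 9.96e-04), shares 93.4% of its words with other rows, chiefly Hist1h2ao.

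**Figure D5:**
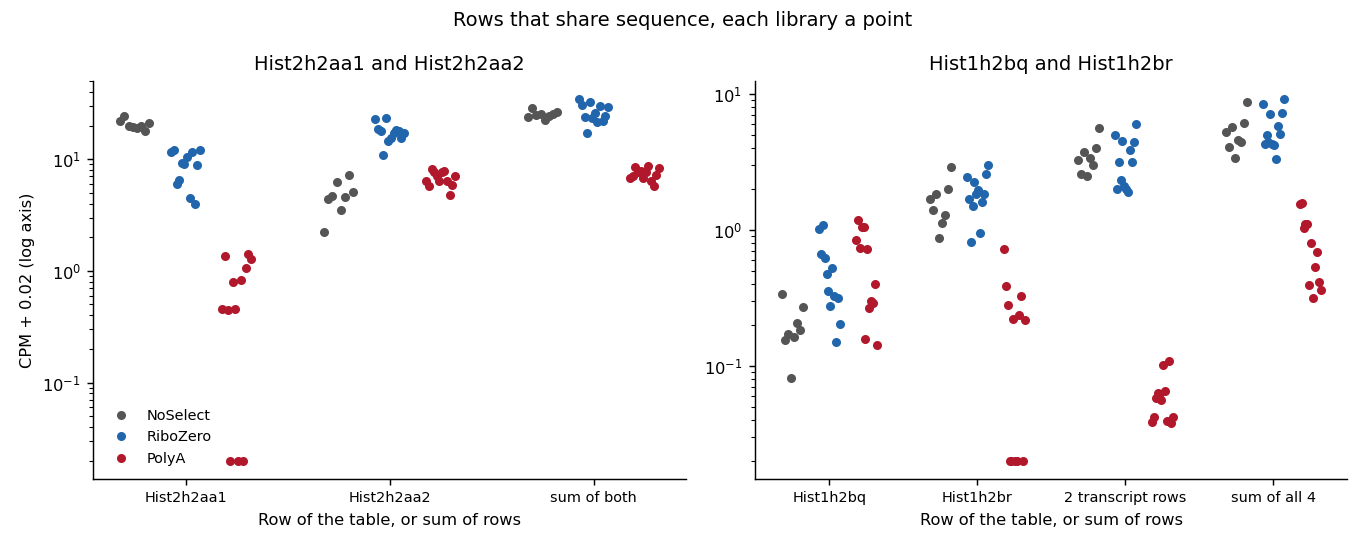
CPM plus 0.02 on log axes for Hist2h2aa1, Hist2h2aa2 and their sum (left) and for Hist1h2bq, Hist1h2br, their 2 transcript rows and the sum of all 4 (right), each point a library. Single rows differ between NoSelect and RiboZero in opposite directions on the left, but the sums overlap, and in both panels the PolyA sums lie below all other libraries.

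The 18 members not tested in both comparisons were 11 H2A, 4 H2B, 1 H1, 1 H3 and 1 H4 row. Hist1h2ai and Hist1h2ad were tested against RiboZero alone (-4.82 and -2.58), and Hist1h2ap and Hist1h4m against NoSelect alone (-9.29 and -6.89). Of the other 14, the H2A rows Hist1h2ae, Hist1h2ag and Hist1h2ah reached 50.4, 34.6 and 29.5 counts in a NoSelect library and at most 3.2, 1.1 and 0 in a PolyA library, and the rest had at most 20.2 counts in any library. Hist3h2ba, the H2B gene next to Hist3h2a, had 3 to 14 counts per NoSelect library, 0 to 12.5 per RiboZero library and 2.5 to 12 per PolyA library, and its ranges overlapped. With no filter on low counts it and Hist1h2ba, which had at most 1 count in any library, were also above -1 in both comparisons. No escape can be called for either at this depth.

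Genes that act on histone messages were themselves measured. Of 24 genes for histone transcription and 3′ end formation, 23 were tested, and 3 were called lower in PolyA in both comparisons and 1 higher (background 15.0% and 15.3% lower, 9.19% and 6.54% higher). Those lower were Casp8ap2 (-2.0 against NoSelect and -2.25 against RiboZero), Npat (-1.50 and -1.66), both part of the nuclear body where histone genes are transcribed, and Tut4 (-1.52 and -1.56), a terminal uridylyl transferase. Snrpd3, an Sm core protein, was higher (1.29 and 1.76). Slbp, the stem-loop binding protein, had 0.55 and 0.25. The median of the list was -0.12 and -0.10.

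Replication-independent histone variants, most of whose messages carry ordinary poly(A) tails, were set beside the members. H2afx, which is among them, is known to make both a stem-loop-ended and a polyadenylated message. None of the 11 was called lower, beside 15.0% and 15.3% of all tested rows. All 11 had a positive log2 fold change in both comparisons, with medians of 0.64 and 0.63 and ranges of 0.26 to 1.06 and 0.20 to 2.21. Called higher were H2afz (1.04) and H2afv (1.06) against NoSelect and H1fx (2.21) against RiboZero (background 9.19% and 6.54%). Of 16 genes of S phase and mitosis, Mki67 was called lower in both (-1.41 and -1.47), none was called higher, and the medians were 0.07 and -0.06. By their medians, both lists lay near the median of all rows or above it, unlike the histone rows, and no difference between lists was tested.

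The genotype comparison asked whether loss of Bmal1 changed these rows within a preparation. With edgeR, 0 of 54 tested histone rows were called in RiboZero (background 3.46% of rows, 2 histone rows at unadjusted p under 0.05), 0 of 17 in PolyA (background 4.03%, 2 rows) and 0 of 54 in NoSelect (background 2.17%, 11 rows). Over all tested rows, the unadjusted p was under 0.05 in 2739 of 16710 in RiboZero, 3098 of 17211 in PolyA and 2696 of 17124 in NoSelect. DESeq2 called 0, 1 and 3 histone rows in the same order. Over the same tested rows of the table it called more than edgeR. It gave 494 lower and 491 higher in RiboZero, 752 and 603 in PolyA, and 418 and 456 in NoSelect. In whole lung, fewer cells of a type and less RNA per cell cannot be told apart. The median log2 difference of KO against WT was -0.17 in RiboZero, 0.20 in PolyA and -0.35 in NoSelect, but the PolyA value covers only rows that passed the count filter there, some mainly through KO. The H2B row Hist1h2bg, for example, had 11.0 to 22.0 counts in the KO libraries and under 10 in all WT libraries but that of WT mouse 1. Over the 17 rows tested in PolyA, the medians were 0.03 in RiboZero and -0.06 in NoSelect, where 16 of them were tested. The other tested rows had medians of -0.29 in RiboZero and -0.41 in NoSelect. No histone row was called in the test of a different KO effect between PolyA and RiboZero (background 0.0%, 55 histone rows tested). DESeq2 called 0 histone rows as well. The unadjusted edgeR p was under 0.05 in 1 histone row, beside 331 of 18164 rows of the table.

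The rows with the lowest p in each preparation were Hist1h2bq, Hist3h2a and Hist1h4k. Hist1h2bq in RiboZero lay at 0.13 to 0.503 CPM in WT (median 0.274) and 0.338 to 1.07 in KO (median 0.625), a log2 difference of 1.25 (SE 0.359, adjusted p = 0.0794, between 0.0454 and 0.12 over the alternatives). In PolyA it was 1.26 (adjusted p = 0.162, between 0.038 and 0.21). Its KO mouse 6 libraries were the lowest KO libraries in all 3 preparations, and without that mouse the difference passed the threshold in RiboZero (1.4, adjusted p = 0.0454) and in PolyA (1.49, adjusted p = 0.038). The WT and KO ranges overlapped in both. With 98.3% of its words shared, the row has to be read with its pair: in RiboZero, Hist1h2br had a KO difference of -0.17, and the sum of the 4 rows was 5.59 ± 1.76 CPM in KO and 5.81 ± 2.15 in WT (SD, n = 6 each). The difference in the RiboZero row was thus not seen in the sum. In PolyA the sum was 1.11 ± 0.433 CPM in KO and 0.5 ± 0.193 in WT (SD, n = 6 each), and the ranges overlapped.

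Hist3h2a in PolyA lay at 9.28 to 15.6 CPM in WT (median 9.53) and 11.9 to 17.3 in KO (median 15), a log2 difference of 0.45 (SE 0.14, adjusted p = 0.101, between 0.0236 and 0.119 over the alternatives). It was 0.31 in RiboZero and 0.25 in NoSelect, with no call in either. The WT and KO ranges overlapped in all 3 preparations, in PolyA through WT mouse 1 and in RiboZero through WT mouse 1 and KO mouse 6. Hist1h4k in NoSelect lay at 2.59 to 4.07 CPM in WT and 1.16 to 2.17 in KO without overlap, a log2 difference of -0.87 (SE 0.22, adjusted p = 0.0945, between 0.0149 and 0.276 over the alternatives). In RiboZero it was -0.58 (adjusted p = 0.408) with overlap. Hist1h4k shares 86.2% of its words with other rows.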

How the data were processed

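The authors deposited a single gene table whose 32 columns, 1 per library, hold estimated counts. Per the submitters' processing notes, Salmon 1.4.0, UMI-tools 1.1.1 and build GRCm38 were used; the transcript set and the strand setting are not given in the sources used here. Of the values, 12.81% were not whole, and they were rounded for the tests. Rows whose words are shared are split by Salmon's estimate, which can move counts between near-identical histone rows. Gene symbols, transcripts and coordinates came from GENCODE M21 (GRCm38).

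Preparations were compared with edgeR 4.0.16 (R 4.3.3; TMM, filterByExpr, quasi-likelihood test, genotype as covariate, Benjamini-Hochberg over all tested rows), with a call at adjusted p under 0.05 and at least 1 on the log2 scale. KO and WT were compared within a preparation at adjusted p under 0.05. SE is that of the fitted log2 fold change. In the KO fits, p-values measure the spread between mice. The preparation and interaction fits had no mouse term, although the same mice stand on both sides. Their p-values measure the spread between libraries, with this pairing left out. Counting error at low counts is covered by the fit, and rows with no more than 3 counts per PolyA library are given as bounds. On simulated counts with 200 rows changed by 2 on the log2 scale, the preparation fits recovered 100% and the KO fits 98% to 99.5%. The interaction fit recovered 88% with 7.85% false calls. KO differences of the histone rows ran from -1.09 to 1.26, and recovery at such sizes was not simulated.

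Libraries of one mouse are paired by the labels' animal numbers, and their deviations from the group means correlated at 0.414 to 0.764 over 28 pairs and 13282 rows. Replicates of a group differed by more than sampling noise (chi-square per degree of freedom 7.02 to 69.9 over 72 pairs), so each library counted once.

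The members, gene lists and the rule for named rows were chosen with earlier results of these data known. Named are the escaping rows, rows called lower at most once, the 6 most abundant per kb in NoSelect, the 6 with the lowest log2 fold change where the average log2 CPM was 3 or more, rows called between RiboZero and NoSelect, and the row with the lowest p for KO in each preparation. Other rows were named after their values were seen. Alternatives were DESeq2 1.42.0, other scalings and filters, leaving out 2 abundant rows (Lars2 and Gm42418), thinning, mouse blocks and left-out libraries. Sums of rows that share sequence, the fit of matched mice without a block, and ratios within a genotype were added after seeing the data.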

Additional observations from a re-analysis of the deposited data

Results flagged for a closer look

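Within 69 groups of 4 to 6 libraries and rows with a mean of at least 10 counts, 5 values stood apart from the rest of their group, by a gap test that chance alone passes in about 1 of 20 groups. The sum over all histone rows was 497 CPM in NoSelect WT mouse 6, against 393 to 407 in the other WT libraries. Hist2h3c2 was at 2.41 CPM in NoSelect KO mouse 5, against 1.29 to 1.46 in the other KO libraries. Hist3h2a was high in the same mouse in both large preparations: WT mouse 1 had 15.6 CPM in PolyA, against 9.28 to 11.3, and 14.2 CPM in RiboZero, against 9.15 to 10.8. Hist1h3d was at 3.02 CPM in RiboZero KO mouse 1, against 1.58 to 2.05 in the other KO libraries.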

How the results depend on the processing

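Histone rows called lower in PolyA numbered 38 to 53 against NoSelect and 36 to 53 against RiboZero under the alternatives, except when at least 10 counts were required in every library, which left 10 rows tested in both comparisons and 4 and 6 calls. With the replicate block of mice the counts were 45 (45 for the same mice without the block), 44 and, for RiboZero against NoSelect, 3, and 6 rows escaped. Escaping rows numbered 4 to 9 under the alternatives of test, scaling, filter and libraries, and 10 with the limit moved to -2. Hist1h1c, Hist1h2bc, Hist2h2be and Hist3h2a escaped under each of them. From ratios of mean CPM, 5 rows escaped in WT alone (not Hist2h3c2) and 7 in KO alone (also Hist1h4i, an H4 row). Left-out NoSelect libraries gave 42 to 44 lower calls and 6 escaping rows.

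Among all rows, lower and higher calls in PolyA against NoSelect were 2628 and 1613, and 542 and 15355 when scaled by total counts without TMM. That scaling moved the median of all rows against NoSelect from 0.08 to 2.24 in PolyA and from 0.03 to 1.86 in RiboZero. In PolyA against RiboZero the median moved from 0.07 to 0.42. In RiboZero against NoSelect, 51 of 53 tested histone rows were then called. Over all 16661 tested rows of that comparison, 16074 were then called higher and 103 lower, so nearly the whole table was called. Under that scaling log2 fold changes in PolyA against NoSelect turned positive for Hist1h1c (1.94), Hist1h2ac (1.04), Hist1h3d (0.77), Hist1h4i (1.05) and Hist2h3c2 (1.59), all below the shifted median. So did those in RiboZero against NoSelect for Hist1h2ac (1.72), Hist1h2ap (0.14), Hist1h3d (1.67), Hist1h4h (1.71), Hist1h4m (1.35) and Hist2h2aa1 (0.63).

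Calls of KO against WT, 0 in each preparation, became 1 in RiboZero without KO mouse 6 (Hist1h2bq). In PolyA there was 1 call each without KO mouse 6 (Hist1h2bq), with DESeq2 (Hist3h2a) and with a replicate block of animal number (Hist3h2a). In NoSelect DESeq2 gave 3 calls (Hist1h4k, Hist1h4n and Hist2h3c2) and the block 1 (Hist1h4n). DESeq2 also called more rows of the whole table than edgeR in each preparation. Equal animal numbers of WT and KO name different mice, whose deviations correlated at -0.156 to 0.28. The causes of these changes were not tested. Low depth in RiboZero and low PolyA counts limit the rows below about 10 counts.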

Other observations

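The 16 genes of S phase and mitosis had medians of -0.11 in RiboZero (15 negative), -0.22 in PolyA (16 negative) and -0.25 in NoSelect (16 negative), and none was called in any preparation. The medians are those of KO against WT on the log2 scale. The 3 preparations share their mice, no p is given for a list, and whether the histone rows followed these genes was not tested.

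The row Gm42743, which overlaps Hist2h2bb on the same strand and holds 56.1% of its 31-base words, lay at 0.665 to 1.9 CPM in NoSelect and 0.686 to 2.03 in RiboZero, and had at most 1 count in a PolyA library. It is no histone row by its symbol.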
